A study of Mus musculus with 8 samples.

Results

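Neutrophils follow chemoattractants through receptors that couple to inhibitory (Gi) heterotrimeric G proteins. When such a receptor is engaged, the beta and gamma subunits released from the Gi alpha subunit recruit and activate phosphoinositide 3-kinase (PI3K) gamma, which makes the lipid PIP3 at the leading edge of the cell. The signal is ended by regulator of G protein signalling (RGS) proteins, which speed the return of G alpha subunits to their inactive state, and by lipid phosphatases that take phosphates off PIP3. The 8 genes described here stand for these steps. They are Gnai2 and Gnai3 (Gi alpha subunits), Pik3cg and Pik3cd (catalytic subunits of PI3K gamma and PI3K delta), Pik3r5 (a regulatory subunit of PI3K gamma that binds the beta and gamma subunits), Inpp5d (the lipid phosphatase SHIP1), and Rgs2 and Rgs18 (RGS proteins). They were chosen by name, and their probes were every non-control probe designed on a RefSeq transcript of one of them. This gave 12 probes, all well above background on all 8 arrays, and the 8 genes are 8 of 21240 tested.

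The measurements came from 4 wild-type (WT) and 4 ATF3 KO samples, each from mice on a C57BL/6 background, where ATF3 KO marks loss of ATF3, a transcription factor of the ATF/CREB family that cells make under stress. Bone marrow cells carrying Ly6G, a neutrophil surface protein, were collected with magnetic beads, and their RNA, labelled with Cy3, was measured on single-colour Agilent arrays. The labels give neither the age or sex of the animals nor how the ATF3 allele was made, and separate animals are not stated for the samples, so p-values may measure technical spread only. The design text has RNA taken straight after the sort, but the description field of 7 of the 8 samples speaks of culture in methylcellulose with 4-OHT, and the labels do not settle which holds.

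The 8 arrays shared 1 slide and 1 scan. WT filled one row of the slide and ATF3 KO the other row, so effects of row and of genotype cannot be told apart. Across arrays, the signal's 75th percentile ran from 151 to 216 in WT and from 113 to 161 in ATF3 KO, and the number of arrays limits the precision. Defining neutrophil genes were bright on every array, while Ly6g had no probe that could be named. S100a9 had log2 signals from 10.43 to 10.83 in WT and from 10.85 to 11.33 in ATF3 KO (difference 0.38, limma adjusted p = 0.168). For S100a8, Csf3r and Cxcr2 the differences were 0.36, 0.31 and −0.09 (limma adjusted p of 0.167, 0.159 and 0.630). Of 21240 genes, 95 (0.447%) passed limma's threshold (Benjamini-Hochberg adjusted p under 0.05), 78 (0.367%) higher and 17 (0.08%) lower in ATF3 KO. This count ran from 9 (without WT replicate 1) to 234 (without ATF3 KO replicate 3) and moved by over 1.5 times with any single array left out except ATF3 KO replicate 1. The share of higher among these calls, 82.1%, was 33.3% without WT replicate 1, 40% when dim probes were not filtered and 52.6% with a filter of at least 1 array. Atf3 itself had a higher signal in ATF3 KO (log2 difference 0.51, SE 0.14, limma adjusted p = 0.121), and whether its 1 named probe lies in the deleted part is not known here, so this probe does not check the genotype. Tiam2, which encodes a guanine nucleotide exchange factor, was well above background on all 4 WT arrays (log2 signal 3.59 ± 0.07) and on no ATF3 KO array (measured mean −4.56 ± 0.38, SD, n = 4), so that only a bound on its fold can be given, at least 111-fold lower (limma adjusted p = 3.44e-08). For that bound the WT mean was set against the ATF3 KO arrays' lowest signal among probes well above background, or the probe's own signal if higher.

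None of the 8 Gi and PI3K gamma signalling genes passed the threshold in either direction, where 0.447% of all genes tested did. With so small a share, finding none among 8 genes does not set them apart. Their adjusted p-values ran from 0.208 to 0.928 (limma), and 1 of the 8, Gnai3, had an unadjusted p under 0.05, where 23.9% of all genes tested did. Values are log2 signal relative to the 75th percentile of the same array. On this scale the median difference of all genes was −0.11, so the differences of the 8 genes are also given relative to it. Those of other genes are given without this step. The median difference of the 8 genes was −0.11 as well, with 5 of them below and 3 above the median of all genes. All 8 lay below it with normexp background correction, where their median relative to all genes was −0.14, and with no filter on dim probes, where it was −0.096. For no gene did the values of the WT and ATF3 KO arrays separate completely, whereas they did for 15.1% of all genes tested. In bulk RNA, fewer cells of a type and less RNA per cell cannot be told apart.

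ATF3 binds DNA at ATF/CRE sites and related AP-1 sites, and the upstream sequences of the members were therefore read for both. RefSeq promoter windows (GRCm38.p6, 250 bases before to 50 after the annotated start) were at hand for 6 of the 8 genes, in 9 entries, and not for Gnai2 and Rgs18. The full ATF/CRE motif TGACGTCA, searched on both strands, occurred in none of the 9, and in 1.79% of all 32851 windows. The AP-1 motif TGANTCA also occurred in none, against 7.81% of all windows. The half-site TGACG, which is contained in the full motif, occurred in 3 of the 9 windows (those of Inpp5d, Rgs2 and Gnai3), against 20.8% of all windows. In Gnai3 the match lies after the start, at bases 40 to 44. The bases upstream of the start are shown for the 2 genes with a match there, with the half-site in capitals, to let the letters around each match be read. Rgs2 has 1 match on each strand, CGTCA being the half-site on the opposite strand.

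Rgs2, chr1:144004150-144004399, minus strand: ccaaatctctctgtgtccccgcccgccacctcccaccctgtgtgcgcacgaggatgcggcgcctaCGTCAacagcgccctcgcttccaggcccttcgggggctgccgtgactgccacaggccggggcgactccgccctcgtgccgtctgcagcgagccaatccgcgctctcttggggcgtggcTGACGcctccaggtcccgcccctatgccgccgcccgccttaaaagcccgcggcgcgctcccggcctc
Inpp5d, chr1:87620062-87620311, plus strand: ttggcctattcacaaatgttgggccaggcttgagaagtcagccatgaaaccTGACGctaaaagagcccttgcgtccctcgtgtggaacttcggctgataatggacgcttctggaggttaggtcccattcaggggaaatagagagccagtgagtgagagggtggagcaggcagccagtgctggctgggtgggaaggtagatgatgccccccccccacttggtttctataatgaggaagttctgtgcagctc

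Counted from the start, the matches lie at −185 to −181 and −67 to −63 in Rgs2 and at −199 to −195 in Inpp5d. A match says only that the letters are in this window. Neither gene differed between the groups beyond the threshold, as their values below show.

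Neither Gi alpha subunit gene passed the threshold. Gnai2 encodes the Gi alpha subunit that is prominent in leukocytes. Its log2 signal was 8.18, 8.30, 8.25 and 8.45 in WT replicates 1 to 4 and 8.24, 8.15, 8.54 and 8.18 in ATF3 KO replicates 1 to 4. Both the lowest and the highest value came from ATF3 KO arrays, so the WT range lay inside that of ATF3 KO. The means were 8.29 ± 0.12 and 8.28 ± 0.18 (SD, n = 4), a log2 difference of −0.02 (SE 0.12, limma adjusted p = 0.928), or 0.09 above the median of all genes. Its 95% interval ran from −0.28 to 0.24, which is a change in signal of −17.7% to 18.5%. Gnai3 encodes a closely related Gi alpha subunit. Its log2 signal was 6.29, 6.35, 6.13 and 6.28 in WT and 6.13, 5.97, 6.16 and 5.77 in ATF3 KO. The ranges met only at WT replicate 3, which lay below ATF3 KO replicate 3 and just above ATF3 KO replicate 1. The difference of −0.26 (SE 0.11) had an unadjusted p of 0.0493 and an adjusted p of 0.208 (limma), with an exact permutation p of 0.0571, where 4 against 4 allows no less than 0.0286. Relative to all genes it was −0.15.

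**Figure D1:**
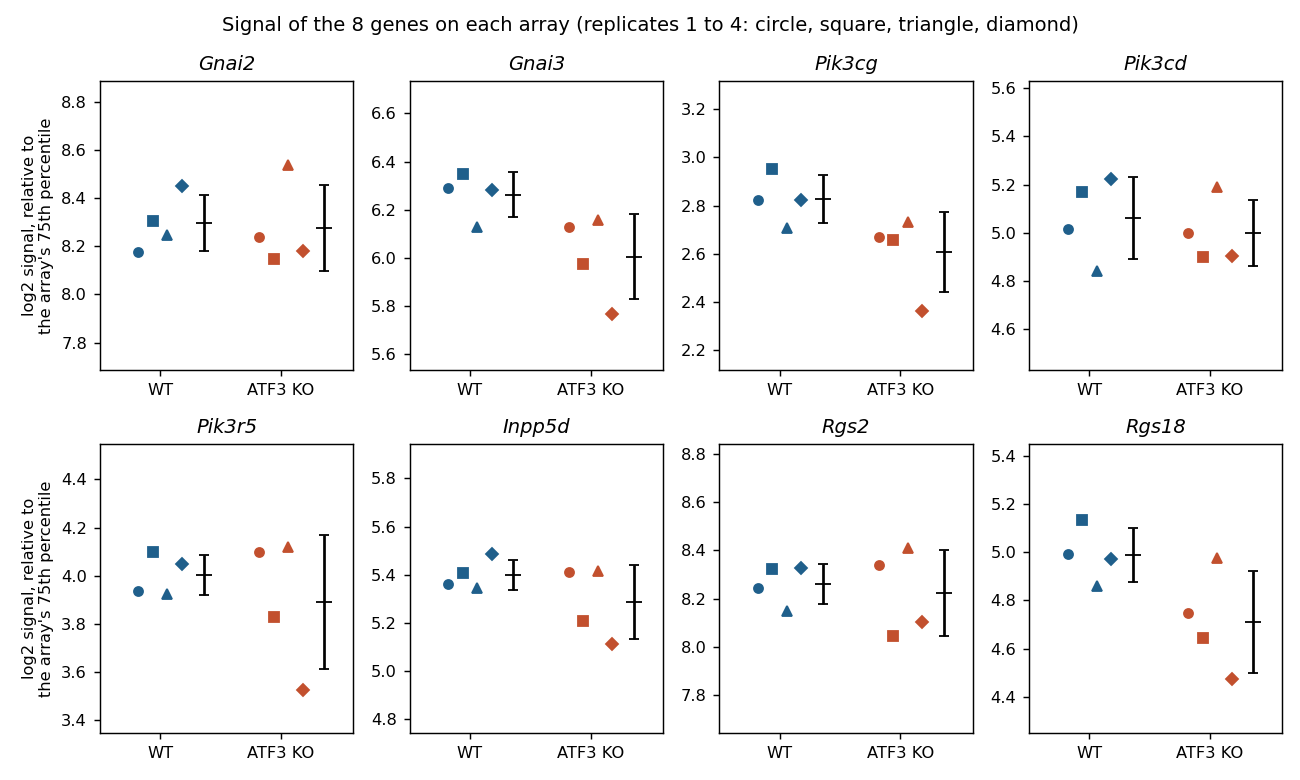
Log2 signal of each of the 8 genes on each array, relative to the 75th percentile of the array, for WT (blue) and ATF3 KO (orange) samples. Points are arrays, with 1 symbol shape per replicate number, and bars give the mean and SD (n = 4). Each panel spans 1.2 log2 units, and in every panel the groups overlap.

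Of the PI3K subunit genes none passed either. Pik3cg, the catalytic subunit of PI3K gamma, is read by 2 probes. The brighter one had a log2 signal of 2.82, 2.95, 2.71 and 2.83 in WT and 2.67, 2.66, 2.73 and 2.36 in ATF3 KO. Only ATF3 KO replicate 3 reached into the WT range, and replicate 4 lay well below the others. The difference was −0.22 (SE 0.11, limma adjusted p = 0.247, exact permutation p = 0.0571), or −0.11 relative to all genes. Without the step relative to all genes it was −0.025 with the deposited log2 table and −0.070 with quantile normalization. With the percentile of probes detected on all 8 arrays it was −0.068. Relative to all genes these values were 0.0025, −0.024 and −0.11, the last unchanged from the main processing. The dimmer probe read 1.68, 1.65, 1.64 and 1.58 in WT and 1.44, 1.47, 1.48 and 1.02 in ATF3 KO. Its groups did not overlap, as was the case for 14.4% of all 27928 probes tested singly. Its difference of −0.29 (SE 0.12) had a limma adjusted p of 0.210 over all probes and was −0.09 with the deposited log2 table. Among the 12 probes of the 8 genes it was the 1 whose groups separated, and 0 of the 12 passed the threshold, against 0.208% of all probes.

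Pik3cd, the catalytic subunit of PI3K delta, which acts mainly in leukocytes, is read by 3 probes. The brightest had a log2 signal of 5.02, 5.17, 4.84 and 5.22 in WT and 4.997, 4.90, 5.19 and 4.90 in ATF3 KO, with all ATF3 KO values inside the WT range. Its difference was −0.06 (SE 0.12, limma adjusted p = 0.734), or 0.04 above the median of all genes. The other two probes, designed on another Pik3cd transcript, gave −0.13 and −0.16 (adjusted p of 0.561 and 0.473 over all probes), with ATF3 KO replicate 4 the lowest array on both. Pik3r5 couples PI3K gamma to the beta and gamma subunits of G proteins. It read 3.94, 4.10, 3.93 and 4.05 in WT and 4.10, 3.83, 4.12 and 3.53 in ATF3 KO. ATF3 KO replicates 2 and 4 lay below the WT range, replicate 3 above it and replicate 1 inside it, and their SD of 0.28 against 0.08 was the widest spread of the 8 genes. The difference of −0.11 (SE 0.14, limma adjusted p = 0.615) equalled that of all genes, and it was 0.01 without ATF3 KO replicate 4.

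Inpp5d, a brake on PI3K signalling in blood cells, also had the difference of the median gene. Its log2 signal was 5.36, 5.41, 5.35 and 5.48 in WT and 5.41, 5.21, 5.42 and 5.11 in ATF3 KO. The upper ATF3 KO arrays, replicates 1 and 3, lay within the WT range and replicates 2 and 4 below it. The difference was −0.11 (SE 0.10, limma adjusted p = 0.483), with a 95% interval from −0.35 to 0.12.

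**Figure D2:**
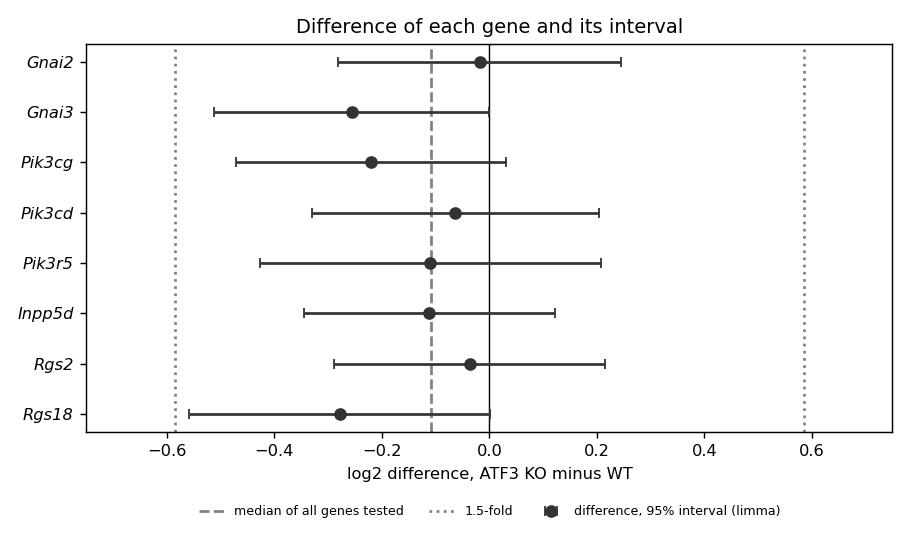
Log2 difference (ATF3 KO minus WT) of each gene with its 95% interval from limma, not adjusted for the number of genes. The dashed line is the median of all genes tested (−0.11) and dotted lines mark a 1.5-fold difference, which no interval reaches.

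Neither RGS gene passed the threshold. Rgs2 encodes a small RGS protein best known for its action on Gq, and its transcript is quickly induced in stimulated cells. The brighter of its 2 probes read 8.24, 8.32, 8.15 and 8.33 in WT and 8.34, 8.04, 8.41 and 8.10 in ATF3 KO. The ATF3 KO arrays spanned the WT range on both sides, and the difference was −0.04 (SE 0.11, limma adjusted p = 0.843), or 0.07 above the median of all genes. The dimmer probe, designed on the same transcript, read 0.69, 0.79, 0.56 and 0.83 in WT and 0.58, 0.39, 0.52 and 0.20 in ATF3 KO. Its groups overlapped between WT replicate 3 and ATF3 KO replicate 1, with a difference of −0.29 (SE 0.12, adjusted p = 0.194 over all probes, limma). The 2 probes thus gave unequal differences, and the within-array distance between them averaged 7.54 ± 0.04 on WT arrays and 7.80 ± 0.12 on ATF3 KO arrays (SD, n = 4), with every ATF3 KO array above every WT array. This distance was looked at after its values were seen and has no test. With normexp background correction it differed by −0.01 between the groups and with the deposited log2 table by 0.02.

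Rgs18 is an RGS gene of blood cells, known above all from platelets and megakaryocytes. Its log2 signal was 4.99, 5.14, 4.86 and 4.97 in WT and 4.75, 4.65, 4.98 and 4.47 in ATF3 KO. ATF3 KO replicate 3 lay within the WT range and the other three below it. The difference of −0.28 (SE 0.12) was the largest of the 8 genes, with a limma adjusted p of 0.211 and an exact permutation p of 0.0857, and it was −0.17 relative to all genes. Not taken relative to all genes, the difference ran from −0.42 with normexp background correction to −0.13 with the scaling percentile of probes detected throughout. Relative to all genes these values were −0.37 and −0.17. The lowest adjusted p of Rgs18 over the alternatives was 0.0883 (limma). Rgs2 and Rgs18 lie near each other on chromosome 1, with other RGS genes between them (chosen here for their place). Of these, Rgs1 had a difference of 0.11 (SE 0.24, limma adjusted p = 0.768) and Rgs13 one of 0.31 (SE 0.19, adjusted p = 0.311), Rgs13 being well above background on 2 arrays of each group. Rgs21 had no probe that could be named.

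The precision of these comparisons can be read from the intervals. The standard errors of the 8 genes lay between 0.10 and 0.14 on the log2 scale. All 8 of the 95% intervals ended within a 1.5-fold difference in either direction, the widest reaching 1.47-fold for Rgs18. With median scaling this held for 4 of the 8 and with normexp background correction for 6. Across the other alternatives, leaving out single arrays included, it held for 6 to 8.

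Ratios of 2 genes on the same array are free of the scaling of the array, and 3 pairs of related genes were compared this way. Since the probes differ, the level of a ratio has no meaning and only its difference between groups is read. The ratio of Gnai2 to Gnai3 was 1.88, 1.96, 2.12 and 2.17 in WT and 2.11, 2.17, 2.38 and 2.41 in ATF3 KO on the log2 scale. The upper WT and lower ATF3 KO arrays overlapped, and the difference of 0.24 (SE 0.10) had an exact permutation p of 0.114. The ratio of Pik3cg to Pik3cd was −2.19, −2.22, −2.13 and −2.40 in WT and −2.33, −2.24, −2.46 and −2.54 in ATF3 KO. Its groups overlapped as well, with a difference of −0.16 (SE 0.09, exact permutation p = 0.143). The ratio of Rgs2 to Rgs18 was 3.25, 3.19, 3.29 and 3.36 in WT and 3.59, 3.40, 3.43 and 3.63 in ATF3 KO. It was higher on all 4 ATF3 KO arrays than on any WT array, by 0.24 (SE 0.07), or 1.18-fold. Its exact permutation p was 0.0286, the smallest that 4 against 4 allows, and 0.0857 after adjustment over the 3 pairs, so no pair passed. A pair could pass after this adjustment only if another pair also had the smallest p. The lack of a pass therefore says little about this pair. These values rest on the brighter Rgs2 probe. With the dimmer one, an alternative added after the data were seen, the difference was −0.015 and the groups overlapped (exact permutation p = 0.914). With the brighter probe the Rgs2 to Rgs18 difference was 0.24 with normexp, with overlapping groups, and 0.09 with the deposited log2 table, and the Gnai2 to Gnai3 difference was 0.06 with the latter.

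**Figure D3:**
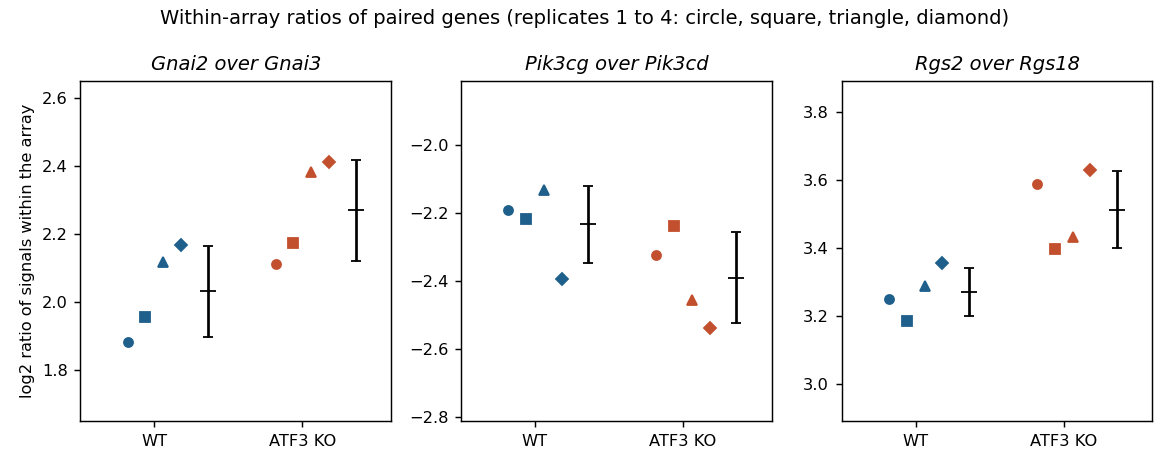
Log2 ratio of 2 genes' signals on the same array, for WT (blue) and ATF3 KO (orange). Points are arrays and bars give the mean and SD (n = 4). The Rgs2 to Rgs18 ratio runs from 3.19 to 3.36 in WT and from 3.40 to 3.63 in ATF3 KO, and the groups of the other two pairs overlap.

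Several members were low on the same arrays. ATF3 KO replicate 4 held the lowest value for 5 of the 8 genes (Gnai3, Pik3cg, Pik3r5, Inpp5d and Rgs18), and the mean deviation of the 8 genes from their own means was −0.27 there and −0.14 on ATF3 KO replicate 2. On ATF3 KO replicate 3 it was 0.12 and on ATF3 KO replicate 1 it was 0.01. In WT it ran from −0.04 (replicate 3) to 0.15 (replicate 2). The median deviation of all genes on ATF3 KO replicate 4 was −0.08, and that array had the lowest 75th percentile (113) and the smallest share of probes above background (46.0%, against up to 55.3%). WT replicate 4 (46.4%) and ATF3 KO replicate 3 (46.9%) had shares close to it, with mean deviations of 0.13 and 0.12. The share on ATF3 KO replicate 2 was 53.2%. A link between share and deviation was not tested. For 5 of the 8 genes the SD within ATF3 KO exceeded the size of the difference between the groups. Without ATF3 KO replicate 4 the difference was −0.20 for Rgs18, −0.18 for Gnai3 and −0.14 for Pik3cg.

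The array profile of Rgs18, the member with the widest range (0.66), was compared with those of the 13082 other named genes by the root mean square difference of the 8 centred values. Among the closest were Ccdc126 (0.022) and Fgr (0.028), which encodes a Src-family kinase of myeloid cells. For comparison, the median over all named genes was 0.19. Ccdc126 and Fgr had differences of −0.27 and −0.24, with adjusted p-values of 0.210 and 0.242 (limma). Since they were picked for likeness over the same 8 values, these were bound to lie near the difference of Rgs18. Among the other members, Gnai3 (0.059) and Pik3cg (0.072) lay nearest to Rgs18 and Gnai2 (0.17) farthest.

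**Figure D4:**
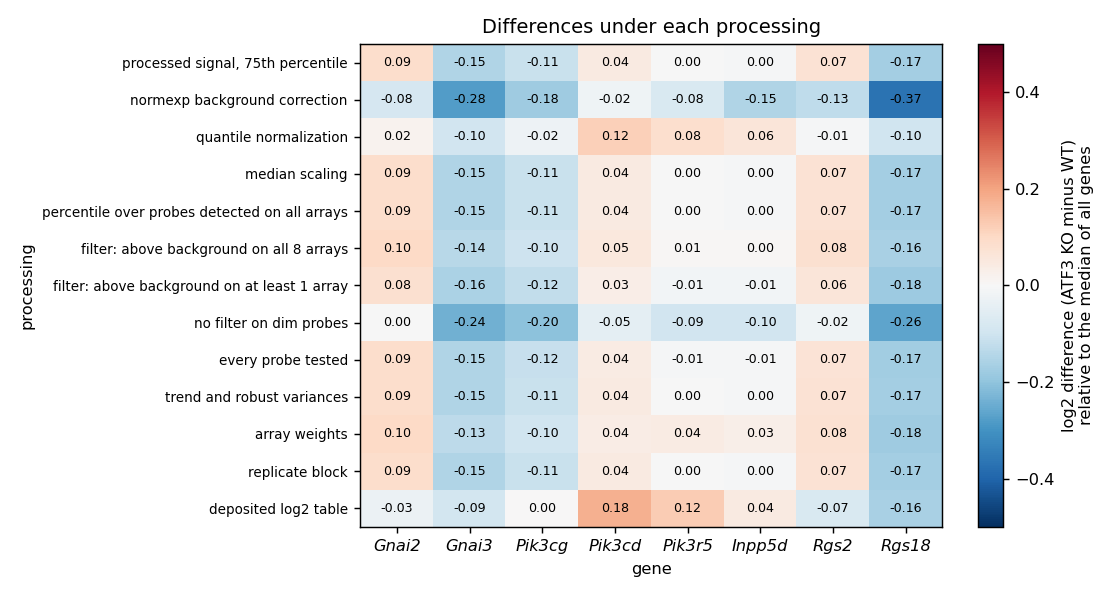
Log2 difference (ATF3 KO minus WT) of the 8 genes (columns) relative to the median of all genes, under the main processing (top line) and 12 alternatives. Blue is lower and red higher in ATF3 KO. Rgs18 lies between −0.37 and −0.10 and Gnai3 between −0.28 and −0.09, while each of the other 6 genes takes both signs.

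Other genes of the pathway were grouped in 7 lists by role, which together hold 121 genes, 104 of them tested. None of the 104 passed the threshold, where 0.447% of all genes did. At an unadjusted p under 0.05 there were 17 lower and 2 higher, 18.3% of the 104 against 23.9% of all genes. The split by direction over all genes at this p is not reported here, and their median difference was itself negative (−0.11). The groups separated completely for 16 of them (15.4%), against 15.1% of all genes. Differences and medians of the lists below are not relative to the median of all genes. Relative to it, the list medians ran from −0.11 (PI3K subunits and adaptors) to 0.08 (RGS and G protein regulators).

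Among G protein subunits, 17 of 26 were tested and the median difference was −0.17. Gngt2, a gamma subunit, read 5.40, 5.60, 5.71 and 5.75 in WT and 5.35, 4.63, 5.33 and 4.92 in ATF3 KO. All WT arrays lay above all ATF3 KO arrays, with a difference of −0.56 (SE 0.17, limma adjusted p = 0.140), the largest of the list in size. Gnaq, the Gq alpha subunit, had −0.27 and the beta subunit gene Gnb3, well above background on 7 of 8 arrays, 0.44 (adjusted p of 0.177 and 0.222). Of the PI3K subunits and adaptors 11 of 12 were tested, and their median of −0.22 was the lowest of the 7 lists. The regulatory subunit gene Pik3r2 had −0.42 (SE 0.12, limma adjusted p = 0.132) with separated groups. Pik3r4 and Pik3c3, subunits of the class III kinase complex of vesicle traffic, had −0.30 and −0.35 (adjusted p of 0.163 and 0.172).

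Phosphoinositide phosphatases, all 16 tested, had a median of −0.16. Mtmr1 (−0.37, SE 0.11, limma adjusted p = 0.130) had separated groups, and Synj2 (−0.39) and Inpp5k (−0.18), a pair of inositol 5-phosphatases, had overlapping ones. RGS genes and other G protein regulators had 18 of 23 tested and a median of −0.03, the highest of the 7. Ric8a, a chaperone of G alpha subunits, had −0.28 (SE 0.11, limma adjusted p = 0.184), Rgs3 −0.29 and Rgs7 −0.46, the last well above background on 3 WT arrays and 1 ATF3 KO array. The last 2 had adjusted p-values of 0.281 and 0.237.

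PIP3 effectors, all 20 tested, had a median of −0.15. Plekha1, an adaptor that binds a breakdown product of PIP3, read 2.34, 2.35, 2.25 and 2.29 in WT and 2.08, 1.85, 1.93 and 1.88 in ATF3 KO. Its groups separated, with a difference of −0.37 (SE 0.09, limma adjusted p = 0.107), and with normexp background correction it passed (−0.43, adjusted p = 0.0496). The kinase gene Akt1 had −0.39 and Adap2, whose protein binds PIP3, −0.30 (adjusted p of 0.207 and 0.205). For receptor desensitisation all 7 genes were tested, with a median of −0.19. The receptor kinase genes Grk3 (−0.29) and Grk5 (−0.25) and the arrestin gene Arrb1 (−0.31) had adjusted p-values between 0.156 and 0.222 (limma).

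In the phospholipase C branch, which here includes adenylyl cyclases, 15 of 17 genes were tested and the median was −0.15. Adcy3, an adenylyl cyclase, read −0.76, −0.74, −0.58 and −0.75 in WT and −0.96, −1.27, −1.11 and −1.16 in ATF3 KO. Its groups separated, with a difference of −0.42 (SE 0.10) and an adjusted p of 0.106, the smallest of all the listed genes (limma), and with the deposited log2 table it passed (−0.40, adjusted p = 0.0448). Another adenylyl cyclase gene, Adcy6, and the kinase gene Prkca had positive differences, 0.56 and 0.52 (adjusted p of 0.191 and 0.188).

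**Figure D5:**
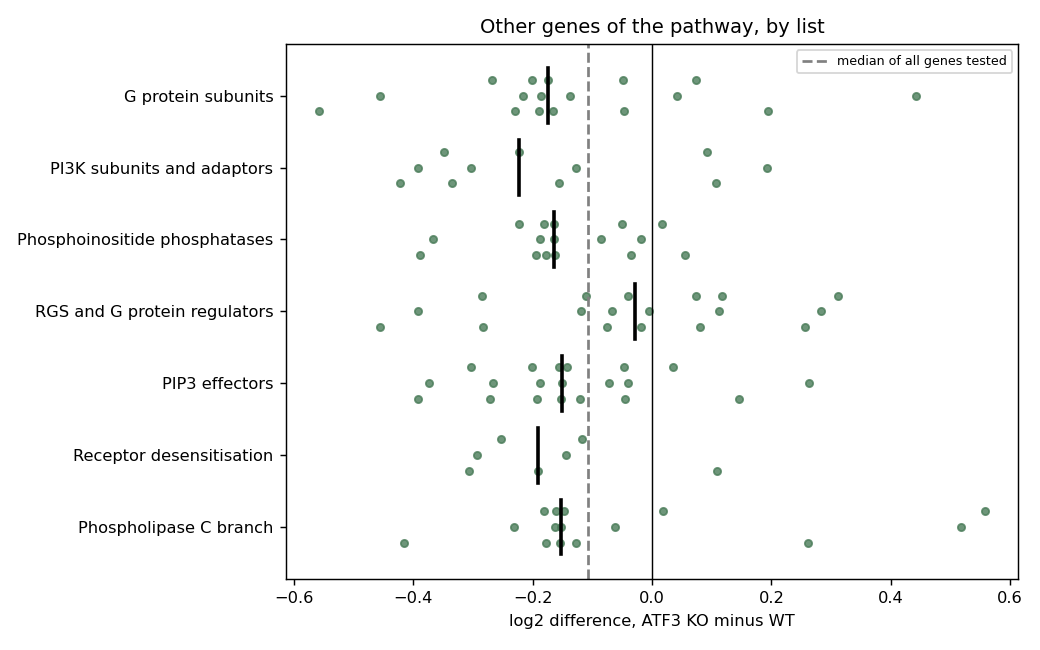
Log2 difference (ATF3 KO minus WT) of each tested gene of 7 lists of other pathway genes. Points are genes, black bars the median of each list, and the dashed line the median of all genes tested. List medians run from −0.22 (PI3K subunits and adaptors) to −0.03 (RGS and G protein regulators), and 0 of the 104 genes passed the threshold.

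Summed levels of markers of several other cell types separated between the groups, and their part in the values above was not tested. Of all marker genes, 1 passed the threshold, where 0.447% of all genes tested did. It was the macrophage gene Vsig4 (log2 difference −0.92, SE 0.15, limma adjusted p = 0.0480), close to the threshold of 0.05. Signals of a list were summed before the log2 was taken, so its brightest genes weigh most. For the 12 B lineage markers the log2 sums ran from 5.78 to 6.32 in WT and from 6.78 to 6.96 in ATF3 KO. The differences of 12 of 12 were above the median of all genes. Of the megakaryocyte and platelet markers, 12 of 12 were above it too, with summed levels from 4.96 to 5.54 in WT and from 5.10 to 6.49 in ATF3 KO. The highest of these sums, 6.49, was that of ATF3 KO replicate 4, the array with the lowest Rgs18 signal, and the defining platelet genes Pf4, Gp9 and Itga2b were well above background on all 8 arrays. Macrophage markers were all lower than the median of all genes (8 of 8), with sums from 7.95 to 8.28 in WT and from 7.42 to 7.90 in ATF3 KO. Stroma markers (7 tested of 8) were likewise all lower, from 6.96 to 7.36 and from 6.08 to 6.87. Dendritic cell markers summed to 8.55 to 8.95 in WT and 9.002 to 9.56 in ATF3 KO, with 5 of 6 tested above the median of all genes. This list includes genes of MHC class II presentation, which do not mark dendritic cells alone. Neutrophil markers overlapped between the groups, from 13.22 to 13.55 and from 13.50 to 13.75, with 12 of 14 above the median of all genes. The groups' sums also overlapped for T and NK cells (7 tested, median difference −0.27), erythroid cells (6 tested, 0.086), monocytes (6 tested, −0.0037) and eosinophils, basophils and mast cells (7 tested, −0.16).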

How the data were processed

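Per the labels' protocols, RNA of Ly6G-positive bone marrow cells was labelled with Cy3 for single-colour Agilent arrays. The deposited scanner files give spot intensity from Agilent Feature Extraction 10.9.1.1 per the file headers (10.10 per the submitters' processing notes). The processed signal was background-subtracted and spatially detrended array by array, per the file headers. The deposited series table holds log2 values whose normalization, centring and direction are not stated. Each column correlated best with the median signal of its own array (lowest r 0.998 across features, column medians from 6.15 to 6.17), and it served as an alternative only. Groups came from the sample titles.

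Control spots and flagged outlier spots were left out (98 to 159 per array), and log2 values of a probe's spots were averaged. The array's 75th percentile over 55681 probes was subtracted. Probes well above background on at least 4 of 8 arrays were kept, and the probe with the highest mean stood for each gene. Because 50.02% of probe values were above background, the percentile was taken over all probes. Symbols came from RefSeq transcript accessions without versions (GRCm38.p6 table), found for 27235 probes and not for 28446. The headers name mm9, so no gene coordinates of that table are given, and only the promoter windows carry coordinates of GRCm38.p6. The test was limma 3.58.1 under R 4.3.3 (lmFit and eBayes with genotype as the only term) over all genes, with Benjamini-Hochberg adjusted p under 0.05. The step was tested on simulated data. Single values had two-sided exact permutation tests. No array pair held identical values, and each array was counted as 1 sample. This does not show that the samples came from separate animals.

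Besides the 8 members, the genes named are Atf3, Tiam2, called genes or otherwise the 3 with the smallest p of each of 7 pathway lists, the 3 profiles closest to the member with the widest range (1 of them is not reported here), and defining markers from 10 marker lists. Members, lists and this rule were chosen with earlier results of these data known. The alternatives were normexp (offset 50, on the median signal, since the scanner files used here have no mean signal column), other scalings, filters, probe choices and variance models, weighting of arrays, a block for the replicate number, the deposited table, an adjusted p under 0.1, leaving out each array and, added after seeing the data, the dimmer Rgs2 or Pik3cg probe in the pair ratios.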

Additional observations from a re-analysis of the deposited data

Results flagged for a closer look

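Among 72 groups of 4 arrays checked for a single array far from the other three, 3 stood out, the gap to the nearest array taking up more of the group's range than Dixon's 95% critical value for 4 values. Chance gives about 1 in 20. On the dimmer Pik3cg probe, ATF3 KO replicate 4 had a log2 signal of 1.02, while the other ATF3 KO arrays lay between 1.44 and 1.48. On 1 of the dimmer Pik3cd probes the same array read 3.97, with the others between 4.40 and 4.48. For Adcy3, WT replicate 3 read −0.58, with the other WT arrays between −0.76 and −0.74.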

How the results depend on the processing

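None of the 8 genes passed the threshold under any of 21 alternatives (lowest limma adjusted p 0.0883, Rgs18 with normexp), and the 4 arrays per group limit what could be called. Gnai3, Pik3cg and Rgs18 kept a negative difference in all of them. Differences turned positive for Gnai2 (0.13), Pik3cd (0.088), Pik3r5 (0.042), Inpp5d (0.040) and Rgs2 (0.12) with the percentile over probes detected on all arrays. With quantile normalization those of Pik3cd (0.075), Pik3r5 (0.038) and Inpp5d (0.017) did, and with the deposited log2 table those of Pik3cd (0.15), Pik3r5 (0.098) and Inpp5d (0.018) and of the 2 dimmer Pik3cd probes (0.040 and 0.058). Without single replicates Gnai2 ran from −0.11 to 0.033, Pik3r5 from −0.19 to 0.012 and Rgs2 from −0.099 to 0.024. Rgs7 was 0.081 with normexp. The scaling moved the median difference of all genes from −0.18 (median scaling) to 0.044 (percentile over detected probes). That percentile shifts all genes alike, so the 5 changes of sign under it are a moved zero point. Relative to all genes, Gnai2 (0.09), Pik3cd (0.04), Pik3r5 (−0.002), Inpp5d (−0.004) and Rgs2 (0.07) were the same there as under the main processing. For the other changes of sign the cause was not tested.

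The count of all genes past the threshold was 95 and became 251 with normexp (62.2% higher, against 82.1%), 31 with quantile normalization (71.0% higher), 217 with median scaling, 44 with the percentile over detected probes, 19 with a filter of at least 1 array (52.6%), 10 with no filter (40%), 192 with trend and robust variances (70.8%), 148 with array weights, 149 with the deposited table and 403 at an adjusted p under 0.1. With every probe tested singly, 58 probes passed. Without single arrays it ran from 9 to 234, with 9, 36, 13 and 59 without WT replicates 1 to 4 and 124, 20, 234 and 29 without ATF3 KO replicates 1 to 4. Leaving out WT replicate 1 or 3 brought the share of higher calls to 33.3% or 53.8%, and leaving out ATF3 KO replicate 2 or 4 brought it to 60% or 65.5%. Of the listed pathway genes, 1 passed with normexp (Plekha1), 1 with the deposited table (Adcy3) and 0 under the other alternatives. The gene pair differences kept their sign with normexp, with the deposited table and without each array. Without single arrays the exact permutation p cannot go below 0.0571, so no pair could pass there. With the dimmer Rgs2 probe, chosen after seeing the data, the Rgs2 to Rgs18 difference was −0.015, and with the dimmer Pik3cg probe the Pik3cg to Pik3cd difference was −0.22.

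With the replicate number as a block 72 genes passed, and the smallest adjusted p of the 8 genes was 0.301. Deviations of same-numbered samples correlated at 0.19, −0.13, −0.27 and 0.18 for numbers 1 to 4, and 2 of the 4 WT arrays correlated best with their own number. The number is also the slide column. Whether same-numbered samples share anything else cannot be told from these few correlations.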
